A study of Homo sapiens with 10 samples.

Results

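The genes described here are protein-coding genes whose annotated transcripts all consist of a single exon, followed in U2OS cells after knockdown of DDX41. They were selected on annotation and on their mean level, in CPM (a gene's reads relative to all reads counted in its library, on a common scale after TMM correction). Of 63299 genes listed in the deposited tables, 904 are protein-coding with every GENCODE transcript of 1 exon, and 178 of those had a mean of at least 1 CPM over the 10 libraries. Removing 28 genes on chromosomes M, X and Y and 17 genes with histone, heat shock, DNAJ, ZNF, JUN, protocadherin or FANC symbols left 133 genes on 19 chromosomes, which are called intronless genes below. Their levels are therefore a description. The limit is on the mean of both groups, and 4 genes were under 1 CPM in 1 of them. ACTBL2, C11orf96 and RPP25 passed through their siCtrl level and PNMA8C through its siDDX41 level, so their differences are given as a description. The lowest genes kept were RPP25 at 1.11, CCDC96 at 1.19 and CEBPA at 1.19 mean CPM. The highest ones left out by the limit were DCAF4L1 at 0.959, IGIP at 0.901 and PROB1 at 0.886. In all, 618 genes that meet the other conditions were below the limit, and 425 of them had no count in any library.

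RNA-sequencing was performed on polyadenylated RNA of U2OS cells (spelled U20S in the sample labels), a human osteosarcoma line. There were 5 libraries treated with control siRNA (siCtrl) and 5 treated with a pool of siRNA against DDX41 (siDDX41). Both groups were collected 48 h after transfection, and the siRNA is the labelled difference between them. The comparison asks how the amount of RNA of each gene differs once the helicase DDX41 is depleted. Nothing in the sources used here says that the replicates are separate cultures, and p-values then measure the spread between these libraries alone.

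Most human protein-coding transcripts are spliced from several exons, and an intronless gene gives a messenger RNA that leaves the nucleus without this step. Many intronless genes arose when a spliced messenger RNA was copied back into the genome, and the class is rich in transcription factors, G protein-coupled receptors and small signalling proteins. DDX41 is a DEAD-box helicase that has been found with the spliceosome and at hybrids of RNA and DNA.

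The targeted gene was lower in every siDDX41 library. DDX41 gave 49.1, 49.4, 47.3, 47.2 and 50.5 CPM in the siCtrl and 11.5, 13.7, 12.4, 11.2 and 12.3 CPM in the siDDX41 libraries. Its log2 fold change (siDDX41 over siCtrl) was -1.99, with a standard error (SE) of 0.05 and an adjusted p of 4.47e-24 (edgeR, quasi-likelihood, adjusted by Benjamini-Hochberg over 16143 genes). Total counts lay between 21807041 and 24896398 per library, and the coefficient of variation between replicates that edgeR estimated over genes was 3.65%. Of the mesenchymal and osteoblast-lineage markers, mean CPM in siCtrl and siDDX41 libraries were 32.4 and 24.6 for RUNX2, 5.01 and 3.08 for ALPL, 1875 and 1766 for COL1A1, 2807 and 3181 for SPARC, 2465 and 2321 for VIM, and 225 and 207 for CDH2, while COL1A2 reached at most 0.735 CPM and TWIST1 at most 0.0408 CPM. Of the blood markers, CD3E had no count and PTPRC reached 0.639 CPM. Of the epithelial markers, KRT8 averaged 582 CPM in siCtrl and 802 CPM in siDDX41 libraries, EPCAM lay between 7.39 and 9.42 CPM and CDH1 between 0.736 and 1.29 CPM. The part of these marker differences in the results was not tested, and in bulk libraries fewer cells with a transcript and less of it per cell cannot be told apart.

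Promoters are shown as examples of the sequence context of intronless genes with large changes. In siDDX41 libraries 3 of these genes were higher (SOWAHC, CDK5R2 and CCDC85B) and 2 were lower (SOX2 and SOX12). FOXS1, the deepest fall, had no promoter that could be matched, and those of ARL14 and RRS1, which also rose strongly, are not shown. Each run holds the 250 bases before the RefSeq transcription start (GRCh38.p14), read 5′ to 3′ on the strand of the transcript, which is the plus strand for all of them. Capitals mark the GC box, bound by transcription factors of the Sp family, with the letters GGGCGG in the run itself or in its reverse complement. They also mark the CCAAT box, bound by the transcription factor NF-Y, again on either strand. In order, the windows are chr2:109614114-109614363, chr2:218959416-218959665, chr11:65890423-65890672, chr3:181711675-181711924 and chr20:325302-325551.
SOWAHC: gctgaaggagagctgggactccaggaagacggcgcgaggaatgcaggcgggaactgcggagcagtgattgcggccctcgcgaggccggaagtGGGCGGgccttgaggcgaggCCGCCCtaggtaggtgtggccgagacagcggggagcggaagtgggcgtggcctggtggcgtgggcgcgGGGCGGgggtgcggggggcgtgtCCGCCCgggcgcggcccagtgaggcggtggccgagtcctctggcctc
CDK5R2: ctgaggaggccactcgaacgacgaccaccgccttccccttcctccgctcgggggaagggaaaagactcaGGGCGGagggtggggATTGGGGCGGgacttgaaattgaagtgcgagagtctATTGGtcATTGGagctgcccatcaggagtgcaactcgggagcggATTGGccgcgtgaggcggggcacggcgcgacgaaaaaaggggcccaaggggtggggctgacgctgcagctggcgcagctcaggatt
CCDC85B: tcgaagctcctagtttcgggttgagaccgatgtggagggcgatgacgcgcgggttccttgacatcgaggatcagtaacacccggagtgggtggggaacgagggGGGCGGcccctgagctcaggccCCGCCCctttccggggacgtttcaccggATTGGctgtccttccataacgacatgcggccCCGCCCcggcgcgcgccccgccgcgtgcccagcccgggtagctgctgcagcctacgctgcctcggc
SOX2: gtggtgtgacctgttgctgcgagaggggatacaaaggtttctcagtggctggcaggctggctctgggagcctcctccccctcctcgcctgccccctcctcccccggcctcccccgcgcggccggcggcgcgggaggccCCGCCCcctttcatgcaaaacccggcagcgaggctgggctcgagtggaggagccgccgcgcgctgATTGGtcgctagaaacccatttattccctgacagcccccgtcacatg
SOX12: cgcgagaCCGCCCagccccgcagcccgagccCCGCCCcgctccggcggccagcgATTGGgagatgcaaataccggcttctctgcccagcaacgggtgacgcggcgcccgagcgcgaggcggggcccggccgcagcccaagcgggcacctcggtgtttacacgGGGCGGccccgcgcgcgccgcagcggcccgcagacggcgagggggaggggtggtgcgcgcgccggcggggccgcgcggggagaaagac

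The SOWAHC window holds 4 GC boxes and no CCAAT box, and the CDK5R2 window holds 2 GC boxes and 4 CCAAT boxes, 1 of which shares a base with a GC box. The CCDC85B and SOX12 windows each hold 3 GC boxes and 1 CCAAT box, and the SOX2 window holds 1 of each. Further letters were searched on either strand, and none of them occurs in these windows. They were TATAAA for the TATA box of the basal transcription machinery, then TGACGTCA for the response element of cAMP, then CACGTG for the E-box of helix-loop-helix factors, and finally TGACTCA for the binding site of AP-1. Promoters of 101 of the 133 intronless genes could be matched by gene, and 72 of them (71.3%) hold a GC box, against 42.3% of the 27305 promoters in the RefSeq table. The share was 68.8% in 8531 promoters of multi-exon genes. A CCAAT box stands in 37.6% of the intronless windows, 33.0% of all promoters and 34.1% of those of multi-exon genes, and a TATA box in 6.93%, 11.1% and 4.96%. In the same order, a cAMP response element stands in 3.96%, 1.77% and 2.94%, an E-box in 8.91%, 6.49% and 9.13%, and an AP-1 site in 4.95%, 4.16% and 2.41%. Mean GC content was 64.1% in the intronless windows, 56.9% in all and 64.7% in multi-exon windows. A GC box stands before 26 of 39 matched intronless genes that rose (66.7%) and 28 of 33 that fell (84.8%), and a CCAAT box before 15 of each (38.5% and 45.5%). These shares describe letters in a window, and the differences between them were not tested.

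Intronless genes changed in both directions after DDX41 knockdown. At an adjusted p under 0.01, 54 of the 133 genes (40.6%) were higher in siDDX41 libraries, 44 (33.1%) were lower and 35 did not pass the test. Over all 16143 genes tested, 30.3% were called higher, 32.1% lower and 62.4% in either direction, against 73.7% of intronless genes in either direction. The lower share of intronless genes thus lay near the background, while the higher share stood above it. Among the 129 genes at 1 CPM or more in both groups 53 were higher (41.1%) and 41 lower (31.8%). The deepest fall was in FOXS1, a forkhead transcription factor, at 8.38-fold lower, followed by SOX2, a transcription factor of stem cells and neural progenitors, at 3.99-fold lower. The highest rises were in ARL14, a small GTPase, at 2.64-fold, and SOWAHC, an ankyrin repeat protein, at 2.25-fold.

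Single libraries were compared as well. In 84 of the 133 intronless genes (63.2%) the CPM of the groups did not overlap, against 55.9% of all genes tested, with the siDDX41 libraries higher in 44 and lower in 40. The median log2 fold change was 0.10, against -0.0014 over all genes, and the median of its absolute size was 0.34, against 0.28. Of the 54 higher genes, 15 rose by a log2 fold change of at most 0.25. With a log2 fold change over 0.5 required as well, 22 intronless genes (16.5%) were higher and 25 (18.8%) lower, against 9.81% and 15.7% of all genes and 9.01% and 15.0% of multi-exon genes. Weighted to the level of the intronless genes (as described below), the multi-exon shares were 11.0% and 19.4%, so that large rises stood above them and large falls did not. Among these larger changes, falls were at least as frequent as rises. These counts include ACTBL2, C11orf96 and RPP25 as falls and PNMA8C as a rise, genes kept through their level in only 1 group.

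**Figure D1:**
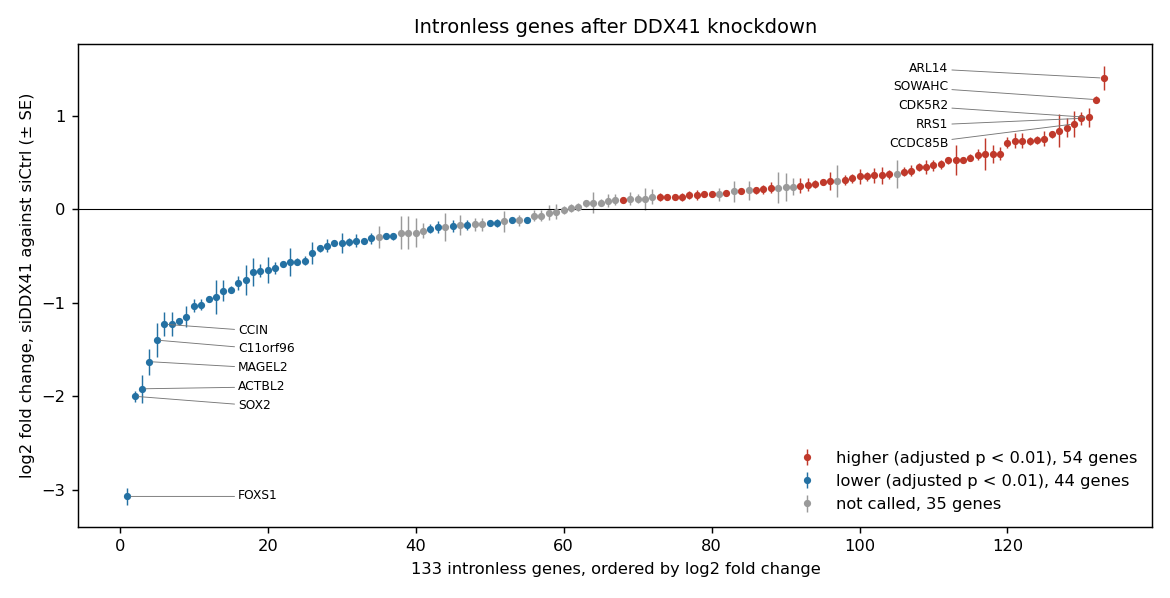
Log2 fold change of each of the 133 intronless genes (siDDX41 against siCtrl, vertical axis, with bars of 1 SE from edgeR), ordered from the lowest to the highest along the horizontal axis. Red points are the 54 genes called higher, blue points the 44 called lower and grey points the 35 not called at an adjusted p under 0.01, and the lower tail, down to -3.07 in FOXS1, reaches further from 0 than the upper tail, up to 1.40 in ARL14.

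Multi-exon genes of similar level were set beside them. These are the 10524 protein-coding genes with at least 2 exons in every transcript, taken with the same limits on level, chromosome and symbol. Of them 34.9% were called higher, 35.3% lower and 70.2% either way, and 63.8% did not overlap between groups. They were more abundant (median 37.3 CPM, against 12.9 CPM in intronless genes), so their shares were weighted to the number of intronless genes in each of 4 ranges of level. Weighted in this way, 30.4% of multi-exon genes were higher and 36.0% lower with a median log2 fold change of -0.04, against 40.6%, 33.1% and 0.10 in intronless genes. Intronless genes were also shorter in exon sequence (median 2688 against 5625 bases) and richer in G and C (54.4% against 47.5%). With weights for exon length as well, the multi-exon shares were 32.3% higher and 33.6% lower, and with weights for GC content they were 28.4% and 37.8%. The difference between intronless and multi-exon genes was not tested, since genes are not replicates of a treatment.

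By level, the share of higher genes lay closest to that of multi-exon genes at both ends of the range. Of 37 intronless genes at 1 to under 5 mean CPM, 21.6% were higher and 37.8% lower, near the 20.4% and 35.6% of multi-exon genes. Of 42 genes at 5 to under 20 CPM, 42.9% were higher, against 28.2% of multi-exon genes, and 23.8% lower, against 38.0%. Of 43 genes at 20 to under 100 CPM, 53.5% were higher, against 37.6%, and 32.6% lower, against 35.4%. All 11 intronless genes at 100 CPM or more were called, 5 of them higher (45.5%, against 44.4% of multi-exon genes) and 6 lower (54.5%, against 32.5%). The surplus of higher intronless genes thus stood in the middle ranges, and the top range holds few genes.

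**Figure D2:**
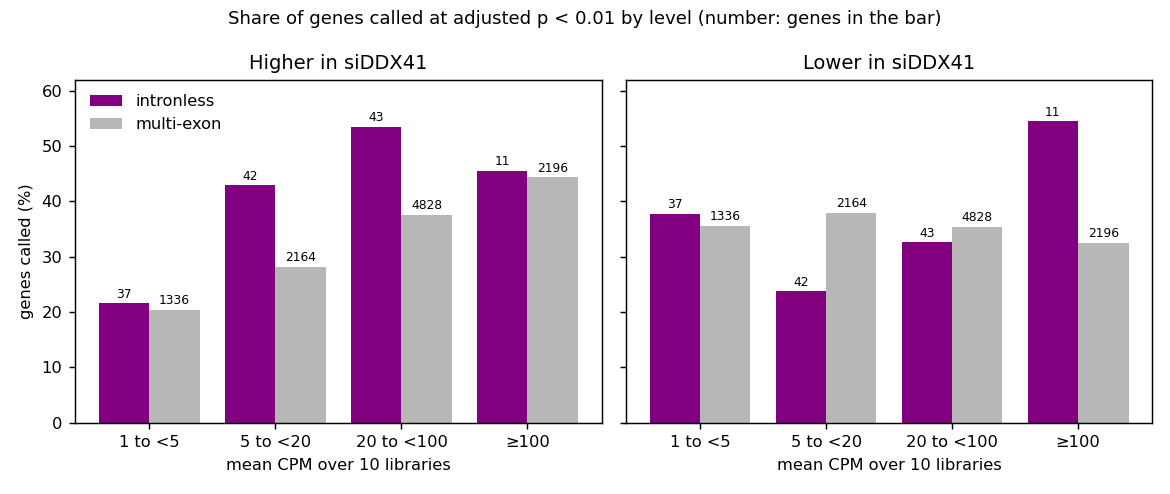
Percent of genes called at an adjusted p under 0.01 (vertical axis) in 4 ranges of mean CPM over the 10 libraries (horizontal axis), for intronless genes (purple) and multi-exon genes (grey), with genes higher in siDDX41 on the left and lower on the right. The number above a bar is the number of genes in that range, and the purple bar is well above the grey bar on the left from 5 to under 20 CPM (42.9% against 28.2%) and from 20 to under 100 CPM (53.5% against 37.6%).

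Transcription factors held the 2 deepest falls, FOXS1 and SOX2. The list of transcription factors and immediate-early regulators was filled by symbol and holds 13 intronless genes, of which 3 were higher, 7 lower and 3 not called, with a median log2 fold change of -0.18. The 167 multi-exon genes that match the same symbols split into 57 higher, 56 lower and 54 not called, with a median of 0.04, and the difference was not tested. For this list and those below, the multi-exon counts are not weighted for level. FOXS1 (chr20:31844303-31845604, minus strand, GRCh38) gave 20.9, 23.8, 20.7, 20.9 and 23.5 CPM in the siCtrl and 2.07, 3.43, 1.98, 2.64 and 2.98 CPM in the siDDX41 libraries. Its highest siDDX41 library lay far below its lowest siCtrl library (log2 fold change -3.07, SE 0.09, adjusted p = 1.64e-20). FOXS1 met the limit of 5 mean CPM for the largest falls only through its siCtrl level (22.0 against 2.62 CPM). SOX2, which keeps stem and neural progenitor cells undifferentiated (chr3:181711925-181714436), gave 36.4, 35.6, 37.5, 33.8 and 39.4 CPM in the siCtrl and 10.3, 9.47, 8.22, 8.77 and 9.11 CPM in the siDDX41 libraries. The siDDX41 libraries were again all below the siCtrl range (log2 fold change -2.00, SE 0.06, adjusted p = 1.53e-22). SOX12, a SoxC factor (chr20:325552-330224), gave 89.9, 97.3, 85.6, 89.3 and 96.9 CPM in the siCtrl and 39.7, 39.4, 41.8, 38.2 and 40.9 CPM in the siDDX41 libraries. Each siDDX41 library held less SOX12 than the lowest siCtrl library (log2 fold change -1.20, SE 0.04, adjusted p = 2.44e-21).

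The other members of this list moved less. SOX4, also a SoxC factor, went from 133 ± 3.92 CPM in siCtrl to 120 ± 6.59 CPM in siDDX41 libraries (SD, n = 5 in each group here and below). This small fall was called although the groups overlapped (log2 fold change -0.15, SE 0.03, adjusted p = 2.51e-04). FOXD2 (log2 fold change -0.36, adjusted p = 0.00443) and FOXC1 (log2 fold change -0.19, adjusted p = 0.00725), forkhead factors of embryonic mesenchyme, fell as well, and FOXC1 levels overlapped between groups. The C/EBP factors, leucine zipper proteins of fat, liver and myeloid cells, were divided. CEBPB fell with overlapping groups (-0.18, adjusted p = 0.00813), CEBPD rose at a low level (0.52, adjusted p = 0.00394) and CEBPA was not called (-0.25, adjusted p = 0.216). CEBPD went from 1.16 to 1.66 CPM on average. PURB, which binds purine-rich single strands, and IER5, an immediate-early regulator, rose slightly (0.13 and 0.20), while IER5L (0.24) and KLF14 (0.30) did not pass the test.

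Relatives with introns were set beside these genes by family, and the families were picked after the values were seen. Over all genes tested 30.3% were higher and 32.1% lower. All 3 intronless SOX genes fell, and of the 6 multi-exon SOX genes 4 were lower, 1 was higher and 1 was not called. The median log2 fold change was -1.20 in the intronless and -0.77 in the multi-exon SOX genes. Among the multi-exon ones SOX5 fell most (-1.47), while SOX17 rose (0.59). All 3 intronless forkhead genes fell, and of 13 multi-exon forkhead genes 8 were lower, 3 higher and 2 not called, with FOXM1 the lowest at -1.20. FOXS1 lay below each of these forkhead relatives, and SOX2 below each of these SOX relatives.

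Receptors at the cell surface were divided. Of 9 intronless receptor genes 2 were higher, 3 lower and 4 not called, with a median log2 fold change of -0.04. Of 152 multi-exon genes with such symbols 38 were higher, 52 lower and 62 not called, with a median of -0.05. The Frizzled genes encode receptors for Wnt ligands, and FZD2 (chr17:44557484-44561262) gave 35.5, 43.5, 32.0, 34.9 and 38.9 CPM in the siCtrl and 21.8, 24.1, 24.5, 21.3 and 24.9 CPM in the siDDX41 libraries. All siDDX41 libraries were below the lowest siCtrl library (log2 fold change -0.66, SE 0.07, adjusted p = 6.79e-07). FZD7 fell less, from 42.8 ± 1.37 CPM in siCtrl to 33.5 ± 0.976 CPM in siDDX41 libraries (log2 fold change -0.35, SE 0.04, adjusted p = 3.00e-09). FZD8 rose at a low level, from 4.26 to 5.46 CPM on average (log2 fold change 0.36, adjusted p = 7.00e-04), and FZD1 was not called (log2 fold change 0.01, adjusted p = 0.753). The intronless Frizzled genes thus spread from -0.66 to 0.36, and the 4 multi-exon ones (FZD3, FZD4, FZD5 and FZD6) from -0.13 to 0.26.

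GPR27, an orphan G protein-coupled receptor, had the largest rise of the receptors, with 6.78 to 7.68 CPM in the siCtrl and 10.3, 11.1, 10.4, 11.7 and 10.3 CPM in the siDDX41 libraries. Its groups did not overlap (log2 fold change 0.59, SE 0.07, adjusted p = 6.32e-09). However, 11.3% of its exon bases lie opposite EIF4E3, which had 189% of its counts, and whether reads were counted by strand is not given in the sources used here. The olfactory receptor gene OR2W3 fell at a low level, from 3.10 to 1.98 CPM on average (log2 fold change -0.65, adjusted p = 1.34e-04). P2RY1, an ADP receptor, and GPR45, an orphan receptor, were not called (log2 fold changes -0.03 and -0.17).

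The list of channels was matched by symbol and took 4 TMEM genes, which are not all channels, and KCNF1. Of these 3 were higher, 1 lower and 1 not called, against 69 higher, 88 lower and 68 not called of 225 multi-exon genes. TMEM158, a membrane protein known to be induced by active Ras, gave 9.76, 9.18, 8.54, 9.46 and 9.87 CPM in the siCtrl and 14.3, 15.2, 14.7, 15.6 and 16.8 CPM in the siDDX41 libraries. Every siDDX41 library was above every siCtrl library (log2 fold change 0.71, SE 0.06, adjusted p = 2.48e-11). TMEM185B rose by little, though without overlap (log2 fold change 0.16, SE 0.03, adjusted p = 6.91e-05), and TMEM203 rose with overlapping groups (log2 fold change 0.15, adjusted p = 0.00875). On the same strand, TPRN covers 5.74% of the TMEM203 exon and had 23.3% of its counts. KCNF1, a silent subunit of voltage-gated potassium channels, fell from 1.66 to 1.12 CPM on average (log2 fold change -0.57, adjusted p = 0.00153), a call that DESeq2 did not make (adjusted p = 0.0134). TMEM81 was not called (log2 fold change -0.19, adjusted p = 0.252).

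The Golgi enzymes that build glycans were all called, 2 lower and 1 higher, and of the 146 multi-exon genes with such symbols 37 were higher and 68 lower. B3GALT6, which adds a galactose to the linker of glycosaminoglycans, gave 12.8, 12.9, 12.4, 12.8 and 14.4 CPM in the siCtrl and 8.19, 8.99, 8.02, 8.05 and 9.02 CPM in the siDDX41 libraries. No siDDX41 library reached the siCtrl range (log2 fold change -0.63, SE 0.06, adjusted p = 8.89e-10). MGAT2, which starts the second antenna of N-glycans, fell from 121 ± 2.96 CPM in siCtrl to 94.0 ± 2.73 CPM in siDDX41 libraries (log2 fold change -0.36, adjusted p = 9.10e-12). FUT4, a fucosyltransferase that makes the Lewis X structure, rose from 15.1 ± 0.927 CPM in siCtrl to 19.3 ± 0.541 CPM in siDDX41 libraries (log2 fold change 0.35, adjusted p = 8.52e-07). Outside the list, DOLK, the kinase that makes dolichol phosphate, the lipid carrier of sugars for glycosylation, rose (log2 fold change 0.48, adjusted p = 2.85e-10). PIGM, a mannosyltransferase of GPI anchors, was not called (log2 fold change -0.01, adjusted p = 0.770).

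Genes of the ubiquitin system and of BTB or Kelch proteins split into 3 higher, 2 lower and 2 not called, against 146, 115 and 129 of 390 multi-exon genes. KCTD12, an auxiliary subunit of GABA-B receptors (chr13:76880175-76886405), gave 25.7, 21.2, 24.7, 24.9 and 26.2 CPM in the siCtrl and 13.0, 12.4, 11.4, 13.2 and 10.4 CPM in the siDDX41 libraries. RNF26, a ubiquitin ligase of the endoplasmic reticulum (chr11:119334527-119337309), gave 93.7, 88.3, 84.5, 84.1 and 87.9 CPM in the siCtrl and 46.0, 47.8, 48.5, 51.6 and 46.8 CPM in the siDDX41 libraries. Both genes were lower in each siDDX41 library, KCTD12 with a log2 fold change -1.02, SE 0.06, adjusted p = 5.23e-14, and RNF26 with a log2 fold change -0.86, SE 0.04, adjusted p = 1.86e-18. In the other direction, KCTD11, an adaptor of the cullin-3 ligase, gave 24.2, 25.8, 24.1, 23.1 and 26.6 CPM in the siCtrl and 36.1, 37.3, 34.9, 35.5 and 38.1 CPM in the siDDX41 libraries. The KCTD11 libraries of siDDX41 were all above the highest siCtrl library (log2 fold change 0.55, SE 0.04, adjusted p = 4.31e-12). OTUD1, a deubiquitinase (log2 fold change 0.41, adjusted p = 5.93e-07), and KBTBD6 (log2 fold change 0.23, adjusted p = 8.95e-04) rose. KBTBD7, the partner of KBTBD6, and KLHL9, both adaptors of cullin-3, were not called (-0.07 and 0.07).

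Small GTPases and signalling proteins split into 2 higher, 2 lower and 2 not called, against 175, 213 and 142 of 530 multi-exon genes. RAP2B, a Ras-like GTPase, gave 88.4, 85.2, 81.5, 87.5 and 86.3 CPM in the siCtrl and 56.0, 57.1, 60.4, 62.2 and 55.1 CPM in the siDDX41 libraries. RHOB, an endosomal GTPase, fell from 91.9 ± 4.85 CPM in siCtrl to 68.4 ± 3.35 CPM in siDDX41 libraries. Neither gene had a siDDX41 library within the siCtrl range (RAP2B log2 fold change -0.56, SE 0.04, adjusted p = 2.51e-14, and RHOB log2 fold change -0.42, SE 0.04, adjusted p = 4.42e-11). The multi-exon relative RAP2A fell as well (-0.39). ARL14, a GTPase of vesicle movement (chr3:160677160-160678448), gave 1.67, 1.71, 1.64, 1.84 and 1.04 CPM in the siCtrl and 4.46, 3.87, 3.67, 4.69 and 4.30 CPM in the siDDX41 libraries. This was the largest rise of all intronless genes, from a low level (log2 fold change 1.40, SE 0.13, adjusted p = 6.68e-11). CDK5R2, a neuronal activator of the kinase CDK5 (chr2:218959666-218962155, promoter shown above), gave 2.94, 3.14, 3.36, 3.38 and 4.71 CPM in the siCtrl and 6.72, 6.91, 7.13, 7.24 and 6.56 CPM in the siDDX41 libraries. All siDDX41 libraries were above the siCtrl range (log2 fold change 0.98, SE 0.10, adjusted p = 6.17e-10). CDK5R2 met the limit of 5 mean CPM for the largest rises only through its siDDX41 level (6.91 against 3.51 CPM), so its place among them is a description. MAP10, a microtubule-associated protein, and PPP1R3D, a glycogen-targeting subunit of protein phosphatase 1, were not called (0.24 and 0.13). FAM217B, opposite 3.38% of PPP1R3D, had 608% of its counts.

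Of 13 genes matched as RNA, translation and mitochondrial proteins 6 were higher, 3 lower and 4 not called, with a median log2 fold change of 0.11. The 753 multi-exon genes with such symbols split into 321, 173 and 259, with a median of 0.08. UTP3, a protein of small ribosomal subunit assembly (chr4:70688532-70690551), gave 74.7, 71.9, 75.1, 78.8 and 74.6 CPM in the siCtrl and 109, 107, 108, 114 and 104 CPM in the siDDX41 libraries. MARS2, the mitochondrial methionyl-tRNA synthetase, gave 9.56, 9.55, 8.12, 7.62 and 9.16 CPM in the siCtrl and 16.7, 12.4, 15.4, 14.4 and 14.0 CPM in the siDDX41 libraries. In both genes every siDDX41 library was above the siCtrl range (UTP3 log2 fold change 0.53, SE 0.03, adjusted p = 7.30e-15, and MARS2 log2 fold change 0.73, SE 0.08, adjusted p = 2.33e-09). ZCCHC3, a zinc finger protein that binds nucleic acids, rose from 34.4 ± 1.29 CPM in siCtrl to 47.0 ± 1.84 CPM in siDDX41 libraries (log2 fold change 0.45, SE 0.04, adjusted p = 3.16e-11). HNRNPA0, which binds AU-rich RNA and was among the most abundant, fell from 232 ± 9.41 CPM in siCtrl to 184 ± 1.36 CPM in siDDX41 libraries (log2 fold change -0.34, SE 0.03, adjusted p = 1.09e-11). RBM15B, a subunit of the m6A methyltransferase complex (log2 fold change -0.29, adjusted p = 3.96e-10), and RPP25, a subunit of RNase P (log2 fold change -0.94, adjusted p = 3.49e-05), fell too, although RPP25 was kept through its siCtrl level alone (1.46 against 0.754 CPM). Part of the RBM15B exon lies opposite DCAF1, which had 70.5% of its counts. SF3B5, a subunit of the SF3b complex that recognises the branch point in splicing, gave 95.4, 100, 82.8, 90.7 and 93.6 CPM in the siCtrl and 95.7, 93.2, 93.8, 98.2 and 103 CPM in the siDDX41 libraries. Its groups overlapped, and it was not called (log2 fold change 0.06, SE 0.04, adjusted p = 0.161). With a GC correction it was called higher (0.16, adjusted p = 1.07e-04, and 1.43e-04 with a replicate block as well).

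RNA-binding genes that the symbol lists missed were grouped after the values were seen. RRS1, a protein of large ribosomal subunit assembly, gave 15.2, 17.4, 13.0, 16.7 and 16.5 CPM in the siCtrl and 33.9, 28.2, 32.8, 30.6 and 28.7 CPM in the siDDX41 libraries. Each siDDX41 library was above the highest siCtrl library (log2 fold change 0.97, SE 0.07, adjusted p = 1.10e-11). PCBP1, which binds C-rich RNA and had the highest mean CPM of all intronless genes, gave 387, 383, 350, 374 and 373 CPM in the siCtrl and 247, 240, 249, 259 and 248 CPM in the siDDX41 libraries. It was lower in each siDDX41 library (log2 fold change -0.59, SE 0.03, adjusted p = 4.70e-17), and its multi-exon relatives PCBP2 and PCBP4 fell as well (-0.89 and -0.14). PCBP1-AS1, a gene on the opposite strand, covers 73.2% of the PCBP1 exon and had 5.70% of its counts. EXOSC6, a core subunit of the RNA exosome, fell (log2 fold change -0.29, adjusted p = 2.31e-07). NANOS1, a translational repressor (log2 fold change 0.36, adjusted p = 1.65e-04), and RIOX1, a ribosomal oxygenase (log2 fold change 0.27, adjusted p = 2.41e-06), rose. NANOS1 groups overlapped, and 1.52% of its exon lies opposite EIF3A, which had 3811% of its counts.

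Several of the largest rises were in genes outside these lists. SOWAHC (chr2:109614364-109618990, promoter shown above) gave 65.2, 69.1, 63.1, 64.1 and 63.9 CPM in the siCtrl and 156, 144, 152, 146 and 137 CPM in the siDDX41 libraries. The lowest siDDX41 library held more than the highest siCtrl library by a wide margin (log2 fold change 1.17, SE 0.04, adjusted p = 4.19e-22). CCDC85B, a coiled-coil protein (chr11:65890673-65891635), gave 5.15, 9.88, 6.27, 6.93 and 8.33 CPM in the siCtrl and 14.2, 14.1, 14.5, 11.5 and 14.7 CPM in the siDDX41 libraries. Its siCtrl libraries were spread, and the groups did not overlap, which was a condition of its choice (log2 fold change 0.91, SE 0.14, adjusted p = 1.22e-04). NOG, which encodes the secreted BMP antagonist noggin (chr17:56593699-56595611), gave 31.3, 33.6, 32.2, 31.7 and 31.8 CPM in the siCtrl and 52.0, 54.6, 51.7, 55.6 and 54.4 CPM in the siDDX41 libraries, with little spread and no overlap (log2 fold change 0.74, SE 0.04, adjusted p = 9.82e-17). EID2, an inhibitor of p300-dependent transcription, rose from 33.6 ± 0.697 CPM in siCtrl to 55.9 ± 3.39 CPM in siDDX41 libraries (log2 fold change 0.73, SE 0.04, adjusted p = 1.03e-15). C6orf120 gave 45.2, 45.9, 44.9, 49.7 and 48.1 CPM in the siCtrl and 83.3, 77.1, 83.0, 83.9 and 79.2 CPM in the siDDX41 libraries. It was higher in each siDDX41 library (log2 fold change 0.80, SE 0.04, adjusted p = 7.91e-18), and 11.5% of its exon lies opposite PHF10, which had 190% of its counts. C8orf48 rose from 5.14 ± 0.396 CPM in siCtrl to 8.53 ± 0.910 CPM in siDDX41 libraries, without overlap (log2 fold change 0.73, SE 0.08, adjusted p = 7.43e-09). SFN, which encodes 14-3-3 sigma and had the highest level per exon length (202 CPM per kb), gave 254, 267, 210, 247 and 244 CPM in the siCtrl and 279, 268, 286, 290 and 295 CPM in the siDDX41 libraries. It rose by little, and the groups lay close to each other without overlap (log2 fold change 0.21, SE 0.05, adjusted p = 0.00253), and the call was lost without siDDX41 replicate 5 (adjusted p = 0.0105).

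Among the falls outside the lists, ATXN7L3B, a relative of a subunit of the SAGA deubiquitinase (chr12:74537835-74545430), gave 156, 155, 155, 164 and 155 CPM in the siCtrl and 80.6, 84.0, 79.8, 79.7 and 79.4 CPM in the siDDX41 libraries. Its libraries were tight within each group and far apart between groups (log2 fold change -0.96, SE 0.03, adjusted p = 6.31e-22). TRIL, a leucine-rich repeat protein that works with TLR4, gave 14.4, 15.7, 15.7, 12.8 and 13.5 CPM in the siCtrl and 6.39, 8.03, 6.61, 7.54 and 6.64 CPM in the siDDX41 libraries. PLPP6, a lipid phosphatase, gave 10.6, 9.35, 10.9, 10.3 and 9.66 CPM in the siCtrl and 6.12, 6.38, 5.52, 6.09 and 5.32 CPM in the siDDX41 libraries. Neither gene overlapped between groups (TRIL log2 fold change -1.03, SE 0.07, adjusted p = 3.58e-13, and PLPP6 log2 fold change -0.79, SE 0.07, adjusted p = 1.25e-10). Of the PLPP6 exon, 10.6% lies opposite SPATA6L, which had 15.1% of its counts.

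**Figure D3:**
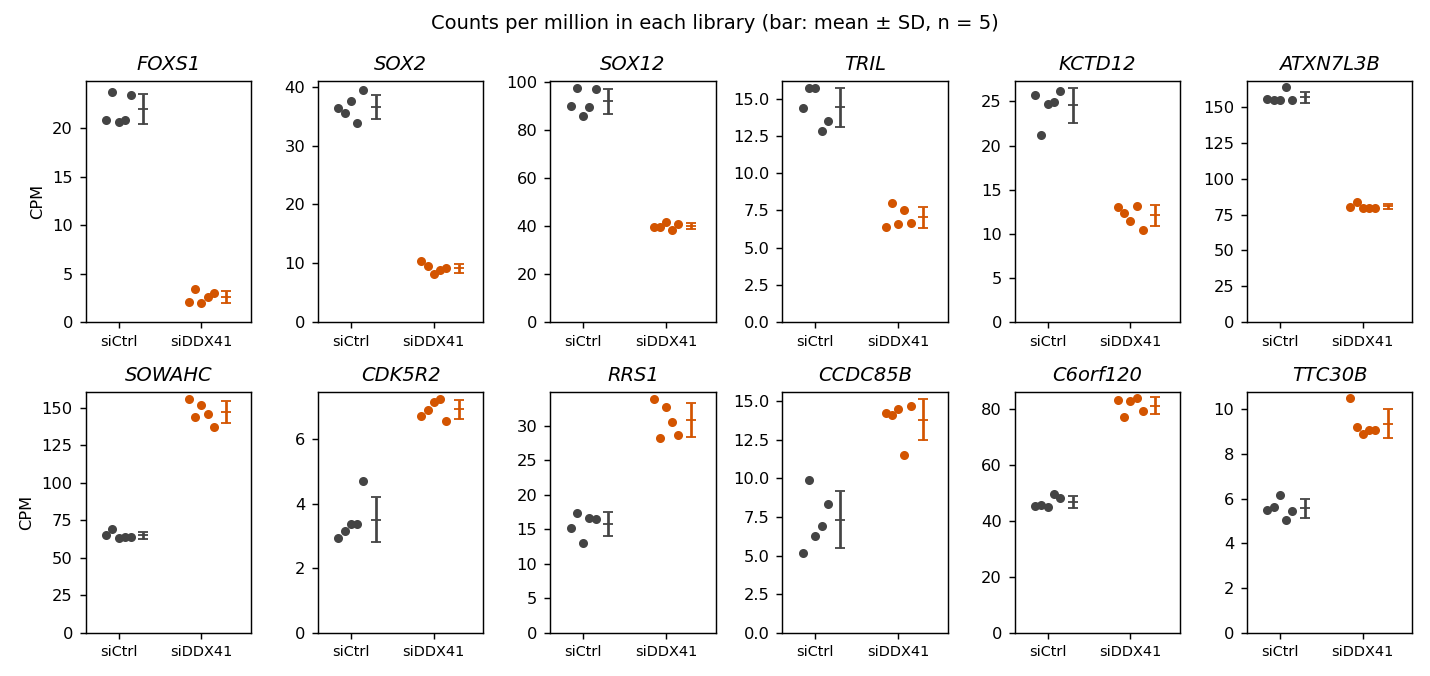
CPM (vertical axis, from 0) in each of the 5 siCtrl (grey) and 5 siDDX41 (orange) libraries for the 6 intronless genes with the largest falls (top row) and the 6 with the largest rises (bottom row) among those of mean CPM 5 or more that were called and did not overlap between groups. Bars to the right of the points give the mean ± SD, and in FOXS1 the siDDX41 libraries lie between 1.98 and 3.43 CPM, below siCtrl libraries of 20.7 to 23.8 CPM, while in SOWAHC they lie between 137 and 156 CPM, above 63.1 to 69.1 CPM.

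Smaller groups of related function were also drawn up after the values were seen. Their counts stand beside 34.9% higher and 35.3% lower among multi-exon genes, not weighted for level, and 30.3% and 32.1% over all genes tested. TTC30B and TTC30A, subunits of the intraflagellar transport machinery of cilia, both rose (0.75, adjusted p = 6.27e-10 and 0.58, adjusted p = 5.72e-10), as did TBCC, a cofactor of tubulin folding (0.33, adjusted p = 5.36e-07). TTC30B gave 5.47, 5.63, 6.18, 5.05 and 5.46 CPM in the siCtrl and 10.5, 9.21, 8.87, 9.07 and 9.07 CPM in the siDDX41 libraries, without overlap. Opposite 5.79% of its exon lies AGPS, whose counts were 2897% of its own, and TTC30A shares some of its sequence. Of 5 genes of vesicle traffic, EXOC8 of the exocyst (0.40, adjusted p = 5.90e-09) and BLOC1S4 of the BLOC-1 complex (0.47, adjusted p = 1.03e-07) rose, and BORCS6, HPS6 and SFT2D3 were not called. SPRTN, opposite 14.7% of the EXOC8 exon, had 96.4% of its counts, and WDR33, opposite all of SFT2D3, had 984%. Of 8 genes of transcription and chromatin, CENPB, which binds centromeric satellite DNA (-0.55, adjusted p = 9.05e-11), and HASPIN, a histone H3 kinase (-0.21, adjusted p = 8.40e-04), fell. HEXIM1, an inhibitor of the elongation factor P-TEFb (-0.12, adjusted p = 8.23e-04), and WDR5B, a relative of the chromatin protein WDR5 (-0.17, adjusted p = 0.00386), fell slightly. EID2 and IRF2BPL, a corepressor (0.52, adjusted p = 1.26e-13), rose, and IRF2BP1 and THAP11 were not called. Opposite-strand partners had 95.4% of the counts of HASPIN (ITGAE), 117% of those of WDR5B (FAM162A) and 65.4% of those of THAP11 (CENPT). In the MAGE family, MAGEL2 fell from 4.20 to 1.35 CPM on average (log2 fold change -1.63, adjusted p = 1.03e-11), while its imprinted neighbour NDN (0.16, adjusted p = 4.50e-05) and MAGEF1 (0.17, adjusted p = 5.01e-05) rose slightly.

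Several of the deepest falls were in genes of low abundance. ACTBL2, CCIN, KLHDC7A, HRCT1 and C11orf96 fell by log2 fold changes between -1.92 and -1.15 without overlap, from means of 2.34 to 4.53 CPM in siCtrl libraries. ACTBL2 and C11orf96 averaged 0.980 and 0.881 CPM in siDDX41 libraries and were kept through siCtrl alone. ACTBL2, an actin-like gene, gave 4.08, 3.67, 3.53, 3.34 and 3.96 CPM in the siCtrl and 0.736, 1.30, 0.605, 1.28 and 0.979 CPM in the siDDX41 libraries. At this level errors were larger, with an SE of 0.15 for ACTBL2 against 0.04 for SOX12. Of the 45 genes in no list 17 were higher (37.8%), 16 lower (35.6%) and 12 not called. Multi-exon genes gave 34.9% and 35.3% without weights for level, and 30.4% and 36.0% when weighted to the level of all intronless genes.

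Some intronless genes are close copies of a gene with introns, and their log2 fold changes are given side by side for pairs chosen after the values were seen. RPL10L rose by 0.31, while RPL10, which encodes a protein of the large ribosomal subunit, fell (-0.17). ACTBL2 fell (-1.92), and beta-actin (ACTB) fell less (-0.29). UQCRHL and UQCRH, the hinge protein of respiratory complex III, rose by 0.45 and 0.41, and CSTF2T and CSTF2, which encode a cleavage stimulation factor subunit, rose by 0.10 and 0.33. C1GALT1C1L (-0.23, adjusted p = 0.0126) and TRAM1L1 (-0.16, adjusted p = 0.0294) were not called, and their relatives C1GALT1C1 and TRAM1 rose by 0.13 and 0.43. HNRNPA1L2 (0.07) and MCTS2 (-0.30) were not called, while HNRNPA1 and MCTS1 fell (-0.55 and -0.22). In HNRNPA1L2 every stretch of 84 bases, the length of a read, also occurs in another gene, as do 99.5% of those in MCTS2. The gene that shares most with HNRNPA1L2 is ENSG00000273784, which covers its whole exon on the same strand and had 0.312% of its counts. For MCTS2 it is HM13, at the same place in the genome. Sharing with HNRNPA1 and MCTS1 themselves was not counted apart. MCTS2 lies almost whole (99.6%) in exons of HM13, so that the level of these copies is uncertain. In RPL10L, ACTBL2, C1GALT1C1L, TRAM1L1 and CSTF2T no such stretch is shared. In UQCRHL 4.53% are shared, and UQCRH is the gene that shares most with it.

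Genome position and sequence features of the intronless genes were described with counts. Of the 8 genes inside an intron on the same strand 1 was higher and 4 lower, of the 9 inside an intron on the opposite strand 3 were higher and 2 lower, and of the 116 others 50 were higher and 38 lower. Over all genes tested these shares were 30.3% and 32.1%, and the first groups are small. SOX2 lies within SOX2-OT, which fell as well (-1.20, adjusted p = 2.14e-09). PABIR1 fell (-0.31) within PIP5K1B, which rose (0.57), and CCDC71L fell (-0.87) within ENSG00000243797, which rose (1.53). EBLN2 (0.19) and PIGM (-0.01) were not called within PPP4R2 and KCNJ10, which fell (-0.19 and -2.59). Mean CPM was 117 for PPP4R2, but the other hosts were low. They stood at 2.67 for SOX2-OT, 2.19 for PIP5K1B, 0.993 for ENSG00000243797 and 0.405 for KCNJ10.

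By exon length, 47.7% of the 44 shortest intronless genes (up to 2124 bases) were higher and 20.5% lower, against 39.4% and 25.8% of multi-exon genes of that length. In the middle range (to 3925 bases) 36.4% were higher and 38.6% lower, against 35.0% and 34.4%, and in the longest 45 genes 37.8% and 40.0%, against 34.4% and 36.6%. By GC content, 40.9%, 45.5% and 35.6% of the intronless genes were higher from the lowest to the highest range (limits at 49.5% and 57.9% GC), against 40.0%, 29.6% and 26.8% of multi-exon genes. The lower shares were 27.3%, 34.1% and 37.8%, against 30.7%, 42.6% and 39.7%. The letters TATTTAT, a core of the AU-rich elements of short-lived messages, occur on the transcript strand of 43 intronless genes (32.3%) and of 53.2% of multi-exon genes. Of the intronless genes with these letters 44.2% were higher and 37.2% lower, against 38.9% and 31.1% of the 90 without them. In multi-exon genes the shares were 36.6% and 34.5% with these letters and 33.0% and 36.3% without them, and over all genes tested 30.3% and 32.1%. Across the 133 genes the log2 fold change was weakly related to mean CPM (Pearson r 0.11, Spearman coefficient 0.07), exon length (-0.06 and -0.12) and GC content (-0.11 and -0.08), a description over genes of the same libraries.

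Of the 133 genes, 40 share exon bases with another counted gene, which in 20 cases had at least 10% of their counts. At least 1 stretch of 84 bases is shared with another gene in 47. Stretches were sought on either strand, so a gene overlapping at the same place counts too, such as PCBP1-AS1 for PCBP1. These sets of 40 and 47 genes therefore have many genes in common and are not separate checks. Reads of these genes may be split differently by another counting. Where opposite-strand exons overlap, counting without strand would drop the shared reads or give them to both genes. SFT2D3, which lies wholly opposite exons of WDR33 in GENCODE 44, kept a mean of 12.6 CPM. The partner opposite 92.0% of the MGAT2 exon had 0.252% of the MGAT2 counts, and PCBP1-AS1 had 5.70% of those of PCBP1. The authors counted reads on another GENCODE release, in which these overlaps were not checked. Whether these pairs were counted apart was not tested. Among the 87 genes with no such overlap that also lie outside same-strand introns, 38 were higher and 26 lower (43.7% and 29.9%). Among the 86 with no shared stretch 36 were higher and 28 lower (41.9% and 32.6%). The shares over all genes tested were 30.3% higher and 32.1% lower, so both lower shares lay near that background.

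All intronless genes together took 0.469 ± 0.00902% of the counts of a siCtrl library (SD, n = 5, 0.457% to 0.480%) and 0.455 ± 0.00343% of those of a siDDX41 library (0.451% to 0.459%). The groups overlapped. The direction turned with the gene list, since the share went from 0.274% to 0.286% without overlaps or same-strand introns and from 1.81% to 2.34% with no chromosome or symbol left out. The 10 most abundant genes, among them PCBP1, SFN, HNRNPA0, PURB and SOX4, held 37.4% of the summed CPM and weigh more in the share than in the median.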

How the data were processed

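RNA-seq was analysed from 10 libraries (5 siCtrl, 5 siDDX41), grouped by the treatment in the labels. The authors prepared stranded polyadenylated libraries, mapped single reads of 84 bases to hg38 with STAR 2.7 and Gencode 25, and deposited whole read counts per gene (featureCounts 1.6), not normalized. Whether reads were counted by strand, and what was done with multi-mapping ones, is not given in the sources used here.

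Genes were joined by Ensembl identifier to GENCODE 44 on the same build (98.7% of tested genes). Counts were tested with edgeR 4.0.16 in R 4.3.3 (filterByExpr by group, TMM factors, robust quasi-likelihood fit, Benjamini-Hochberg adjustment over all 16143 genes, threshold 0.01), and CPM were computed on the same scaled library sizes. DESeq2 1.42.0, other scalings, filters, thresholds and gene definitions, a GC correction, the replicate number as a block and leaving out each library were alternatives. Count pairs of libraries of a group differed by more than sampling noise (chi-square per degree of freedom 1.83 to 6.22 over 20 pairs).

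Named genes were DDX41, the 10 largest rises and 10 largest falls among intronless genes with mean CPM of 5 or more, adjusted p under 0.01 and no overlap between groups, up to 3 genes of each role list with the smallest adjusted p, the 3 highest in CPM per kb, and their relatives. Other genes were named after their values were seen. The members and lists were chosen with earlier results of these data known.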

Additional observations from a re-analysis of the deposited data

Results flagged for a closer look

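Within a group of 5 libraries, 8 of 78 sets of values (76 of CPM of the named genes and 2 of the share of counts) held a library set apart from the others, each in the CPM of a gene, where chance would give about 1 in 20. These libraries belong to both groups and to several replicates. In siCtrl libraries, CDK5R2 reached 4.71 CPM in replicate 5 against 3.38 in the next library, ATXN7L3B 164 CPM in replicate 4 against 156, B3GALT6 14.4 CPM in replicate 5 against 12.9 and RHOB 100 CPM in replicate 2 against 91.8. ARL14 was lowest in siCtrl replicate 5, at 1.04 against 1.64 CPM. In siDDX41 libraries, CCDC85B was lowest in replicate 4, at 11.5 against 14.1 CPM. TTC30B reached 10.5 CPM in siDDX41 replicate 1 against 9.21, and ATXN7L3B 84.0 CPM in siDDX41 replicate 2 against 80.6. In none of these genes did the library reach the range of the other group. For CDK5R2, ATXN7L3B, B3GALT6, CCDC85B and TTC30B this was fixed beforehand, since they were named on condition of no overlap. Each gene was called in the same direction without the library set apart.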

How the results depend on the processing

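With a log2 fold change over 0.5 required, 1584 and 2534 of all genes were higher and lower, with 22 and 25 intronless genes and a weighted 11.0% and 19.4% of multi-exon genes. Lower intronless genes numbered 26 without overlaps or same-strand introns (87 genes) and 28 without shared read-length stretches (86 genes, an alternative chosen after seeing the data). These were 29.9% and 32.6%, near the 32.1% of all genes tested. With each library left out in turn, 49 to 52 intronless genes were higher and 40 to 44 lower, and 44 and 39 were called in the same direction every time. In the same fits 4648 to 4823 of all genes were higher and 4968 to 5121 lower. The median log2 fold change of 0.10 moved to 0.12 with the GC correction, 0.13 with GC correction and replicate block, 0.12 at mean CPM of 5 or more, and between 0.08 (without siCtrl replicate 4) and 0.10 with each library left out. The share of counts in siCtrl and siDDX41 libraries was 0.603% and 0.589% for canonical transcripts of 1 exon, 0.458% and 0.446% at mean CPM of 5 or more, 1.81% and 2.34% with no chromosome or symbol left out, and 0.274% and 0.286% without overlaps. The direction of the share thus turned under the last pair of definitions, whose gene lists differ. DESeq2 called 50 higher and 38 lower intronless genes, with 4801 and 4939 of all genes and a weighted 29.2% and 33.1% of multi-exon genes. A replicate block gave 53 and 42, with 4790 and 5097 and a weighted 29.9% and 35.4%. Same-numbered libraries did not deviate together (correlations -0.0524 to 0.0446, 1 of 5 best with its own number), so no pairing by number was seen. Whether libraries of the same number were prepared together cannot be told from these values. No intronless gene was called in the opposite direction under these fits. Of 646 values of 38 named genes, 642 kept direction and call. KCNF1 was lost with DESeq2, SFN without siDDX41 replicate 5, and SF3B5 was called with the GC correction, with and without the block (0.16 in both). Depth limits the genes near 1 CPM.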
